A study of Mus musculus with 31 samples.

Results

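The libraries described here are the 10 with the most and the 10 with the least Ttr RNA among 31 total RNA libraries of mouse brain. Ttr encodes transthyretin, a carrier of thyroid hormone and retinol-binding protein. The libraries were chosen by their measured Ttr level, in CPM (reads of the gene scaled to a common library size), of a library's total without the genes whose symbol starts with mt-, ranked within agent. The 4 highest and 4 lowest of 13 control libraries and the 6 highest and 6 lowest of 18 deltamethrin libraries were kept, and 11 libraries (5 control, 6 deltamethrin) lay between. The 2 classes were then compared across all genes other than Ttr, with agent as a covariate.

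The study set mice exposed to deltamethrin during development against control mice. Deltamethrin is an insecticide of the pyrethroid class, whose targets are sodium channels of nerve cells. RNA came from aliquots of homogenised hemibrain tissue, and the labels give the tissue (brain) and the agent. Dose, age, sex, strain, litter and collection day are not given in the sources used here, and nothing says that the samples are separate animals, so p-values measure the spread between these samples. The total count ran from 17570311 to 38680621 per library, and 25620 to 29402 genes had a count.

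The choroid plexus is a folded sheet of epithelium in the brain ventricles that secretes cerebrospinal fluid. Its epithelial cells are the main source of Ttr RNA in the brain. They hold apical water and ion transporters, loose tight junctions, a folate receptor that carries folate into the fluid, and tufts of cilia. It is a small tissue, so its share of a brain homogenate can differ from one piece of tissue to the next. In bulk RNA, fewer cells of a type and less RNA per cell cannot be told apart.

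Ttr in the high control libraries was 1580.0, 1299, 985.0 and 836.2 CPM in replicates 7, 2, 11 and 3, and in the low ones 509.9, 420.4, 388.7 and 299.1 CPM in replicates 10, 8, 4 and 12. The high deltamethrin libraries ran from 651.7 to 873.2 CPM (median 804.9) and the low ones from 280.7 to 353.1 CPM (median 297.9). These values chose the libraries and are a description. Ttr was 2.67-fold higher in the high class as a ratio of geometric means, 2.87-fold in control and 2.54-fold in deltamethrin. Counting error was small beside this: the Wilson 95% interval was 1561 to 1599 CPM in control replicate 7, the highest library, and 275.0 to 286.4 CPM in deltamethrin replicate 3, the lowest. Just outside the classes, control replicate 6 had 636.8 CPM and control replicate 1 had 580.2 CPM, and deltamethrin replicate 10 had 587.8 CPM and deltamethrin replicate 7 had 395.9 CPM. In control the upper edge is a step from 836.2 to 636.8 CPM.

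**Figure D1:**
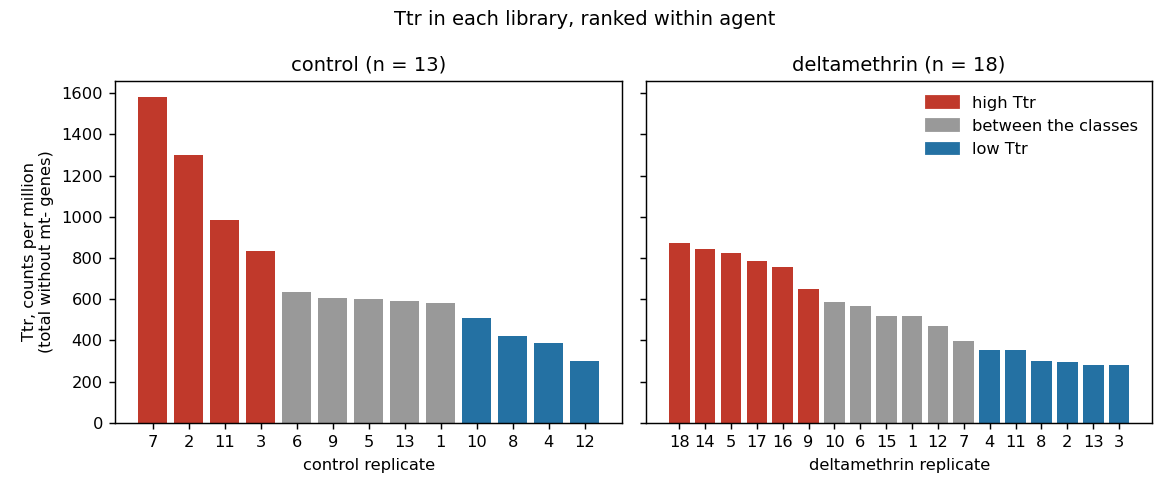
Ttr in CPM of the total without mt- genes, for each of the 13 control (left) and 18 deltamethrin (right) libraries, ranked within agent and coloured by class. Control replicates 7 and 2 reach 1580.0 and 1299 CPM, above the highest deltamethrin library at 873.2 CPM.

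Ttr was 717.6 ± 370.8 CPM in control (SD, n = 13) and 536.4 ± 210.4 CPM in deltamethrin (SD, n = 18). The difference of -181.2 CPM had a two-sided permutation p of 0.0935 (100000 resamples), and 12 of 18 deltamethrin libraries lay below the control median. In a fit of all 31 libraries and 19529 genes, edgeR's quasi-likelihood test put Ttr at -0.46 ± 0.21 in deltamethrin over control (log2 ± SE). The edgeR p of Ttr was 0.0360 unadjusted and 0.813 adjusted over all genes in the fit. The ranks are taken within agent, so this difference plays no part in the classes. With 1 library left out, the difference ran from -109.4 CPM without control replicate 7, the highest control library (permutation p = 0.234), to -216.1 CPM without control replicate 12, the lowest (permutation p = 0.0451).

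Of 5 other measures of the libraries, 0 passed between the classes. Ribosomal RNA of mitochondria made up 25.7 ± 11.4% of counts in the 4 high control libraries and 11.4 ± 2.05% in the 4 low ones (SD), against 15.5 ± 2.18% and 14.1 ± 6.97% in the deltamethrin classes (SD, n = 6 each). Over both agents the difference was 6.60 percentage points (two-sided exact permutation within agent over 64680 arrangements, p = 0.0501, adjusted p = 0.138 over 5 measures). The total count was lower in the high class by 4517400 counts (exact permutation p = 0.0551, adjusted p = 0.138). The number of detected genes, the share of mitochondrial protein-coding RNA and the TMM scaling factor had adjusted p-values of 0.221, 0.594 and 0.288 in the same exact permutation test. Control replicate 2 had the most mitochondrial ribosomal RNA, 40.2% (Wilson 95% interval 40.2 to 40.3%), and control replicate 7 had the most Ttr.

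Choroid plexus genes were 16 of the 21 genes called higher in the high Ttr libraries in the main comparison. Of 19132 genes tested, 21 rose (0.11%) and 0 fell (0%) at an adjusted p under 0.05 by edgeR's quasi-likelihood test, with folds from 1.63 (Gpx8) to 2.82 (Wfdc2). Each of the 21 was above the median of the low class in 10 of 10 high libraries. The genes were called on these same libraries, so that count is a description and adds no support. At an unadjusted p under 0.05, 1278 genes were higher (6.68%) and 1737 lower (9.08%), and DESeq2 called 29 higher and 3 lower. Lower genes were also called with only the most extreme libraries (2122 higher, 1941 lower) and for a slope on log2 Ttr over all 31 libraries (275 higher, 560 lower). Of the 43 genes of the choroid lists, 24 were among those 2122 (of 19375 genes tested) and 30 among those 275 (of 21018 tested). Most genes of both counts were on no choroid list. Of 43 genes in the 3 choroid plexus lists, 16 rose and 0 fell, 41 had a positive log2 fold change and the median was 0.67, against 9472 positive and a median of -0.0032 over all genes tested. The other 5 genes that rose were Drc7, Prr32, Msx1, Wdr86 and Gpx8.

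The count of 21 was smaller when libraries rich in mitochondrial ribosomal RNA were set aside. It was 7 without the 4 libraries with over 20% mitochondrial ribosomal RNA (control replicates 2, 7 and 11 and deltamethrin replicate 8), and 9 with that share as a covariate. The median of the 43 choroid genes was then 0.40 and 0.55, with 39 and 41 of them positive, and the part of this RNA in the result was not tested further. The 7 genes called without those libraries were 1500015O10Rik, Folr1, Aqp1, Drc7, Wfdc2, Slc4a5 and Sostdc1. Of the 9 called with the covariate, 8 were among the 21 and the other was Mfrp. Control replicates 7, 2 and 11 also had the most Ttr of the control libraries, and without them control replicate 3 is the only high control library. Loss of this RNA and loss of the control contrast in Ttr cannot be told apart in that setting.

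**Figure D2:**
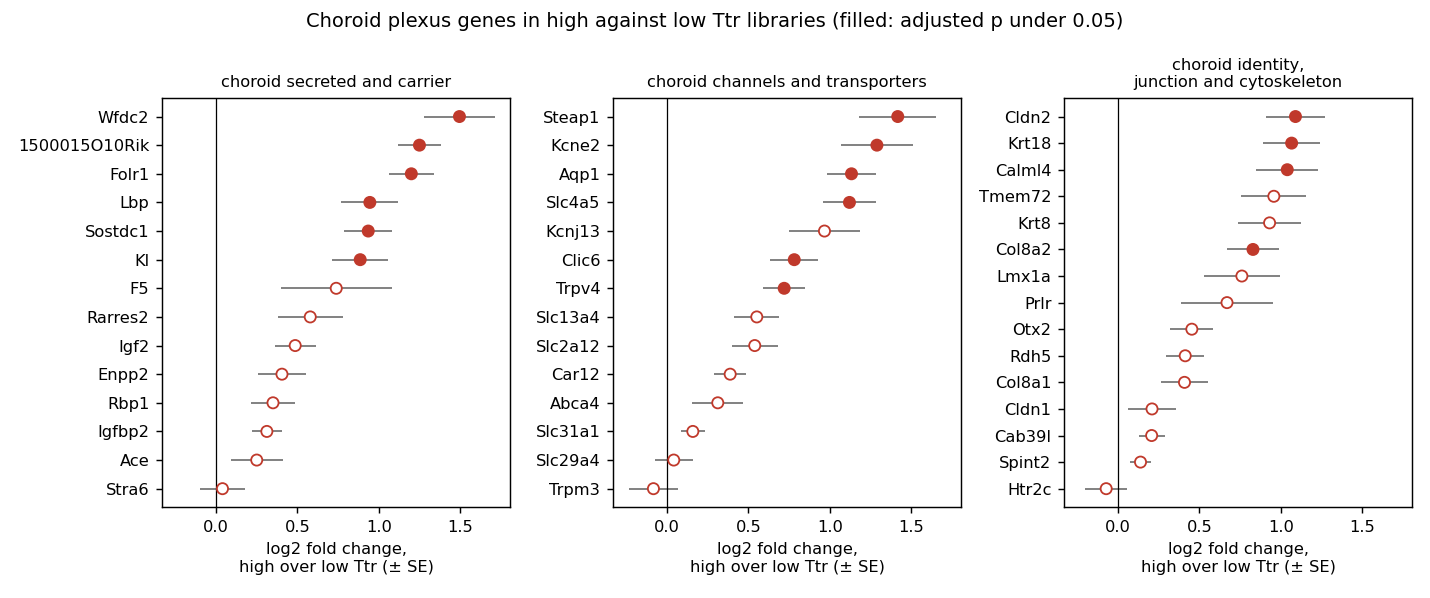
Log2 fold change of the high over the low Ttr class (± SE) for the 43 genes of the 3 choroid plexus lists, each panel 1 list. Filled points are the 16 genes with an adjusted p under 0.05, and 2 genes, Trpm3 and Htr2c, lie below 0.

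Among the secreted and carrier genes, 6 of 14 rose, all 14 had a positive fold change and their median was 0.66. 1500015O10Rik (ENSMUSG00000026051, chromosome 1, 43730602 to 43742578, plus strand, GRCm38), which encodes augurin, a secreted peptide precursor of choroid plexus epithelium, had the smallest p-value of all genes. Its level in the high control libraries was 14.9, 13.03, 10.2 and 7.90 CPM in replicates 7, 2, 11 and 3, and in the low ones 6.36, 4.04, 3.48 and 3.30 CPM in replicates 10, 8, 4 and 12. In deltamethrin it ran from 6.13 to 8.57 CPM in the high class and from 2.59 to 4.11 CPM in the low class. The classes did not overlap within either agent, and over both agents control replicate 10 was the 1 low library to reach the range of the high class. The log2 fold change was 1.25 ± 0.13 (SE, n = 10 and 10; edgeR adjusted p = 5.11e-05).

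Folr1, the folate receptor of the epithelium, lies on chromosome 7 from 101858331 to 101870788 on the minus strand. It had 9.08, 9.58, 8.05 and 6.56 CPM in the high control libraries, in the order above, and 3.38, 2.89, 2.24 and 2.19 CPM in the low ones. In deltamethrin it ran from 3.65 to 5.94 CPM in the high class and from 1.90 to 3.15 CPM in the low class. No low library reached a high one, and the log2 fold change was 1.20 ± 0.14 (SE; edgeR adjusted p = 0.000102).

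Wfdc2, a secreted whey acidic protein domain gene, had the largest fold of the list. It ran from 0.952 to 2.997 CPM (median 1.27) in the high class and from 0.268 to 0.701 CPM (median 0.522) in the low class. The classes did not overlap, and the log2 fold change was 1.50 ± 0.22 (SE; edgeR adjusted p = 0.00184). Its level is low, and its fold has a larger SE than that of 1500015O10Rik.

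The other 3 secreted genes that rose were Sostdc1, an antagonist of BMP and Wnt signals, Lbp, the lipopolysaccharide-binding protein, and Kl, which encodes klotho. Their log2 fold changes were 0.94 ± 0.15, 0.95 ± 0.17 and 0.89 ± 0.17 (SE; edgeR adjusted p = 0.00460, 0.0198 and 0.0289). Kl ran from 12.6 to 33.5 CPM (median 15.8) in the high class and from 5.11 to 13.7 CPM (median 8.85) in the low class, and 9 of 10 high libraries lay above all low ones. The top value of Kl was control replicate 7.

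Several well-known epithelial genes of this list did not pass. Enpp2, the autotaxin gene, had 247.3 ± 72.3 CPM in the high class and 184.9 ± 43.5 CPM in the low class (SD, n = 10 each), a log2 fold change of 0.41 ± 0.15 (SE; edgeR adjusted p = 0.285). Igf2 had 0.49 ± 0.13 and Igfbp2 0.31 ± 0.09, both with the same adjusted p of 0.285. As background knowledge, Enpp2 is also made in oligodendrocytes and Igf2 in meninges and vessels. Whether this bears on their folds was not tested.

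Among the channels and transporters, 6 of 14 rose, 13 had a positive fold change and the median was 0.64. Aqp1, the apical water channel (chromosome 6, 55336432 to 55348555, plus strand), had 8.50, 4.09, 5.17 and 4.51 CPM in high control replicates 7, 2, 11 and 3, and 2.62, 2.28, 2.08 and 1.97 CPM in low control replicates 10, 8, 4 and 12. In deltamethrin Aqp1 ran from 3.22 to 4.91 CPM in the high class and from 1.36 to 2.58 CPM in the low class. The classes did not overlap, and the log2 fold change of Aqp1 was 1.13 ± 0.15 (SE; edgeR adjusted p = 0.000691).

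Slc4a5, a sodium bicarbonate cotransporter of the apical membrane (chromosome 6, 83219828 to 83304945, plus strand), ran from 2.67 to 8.59 CPM (median 3.74) in the high class and from 1.12 to 2.29 CPM (median 1.96) in the low class. Kcne2, an accessory subunit of potassium channels (chromosome 16, 92292389 to 92298129, plus strand), ran from 2.39 to 10.2 CPM (median 3.16) and from 1.23 to 2.299 CPM (median 1.66). Neither gene overlapped between the classes, and their log2 fold changes were 1.12 ± 0.16 and 1.29 ± 0.22 (SE; edgeR adjusted p = 0.00186 and 0.0112). Kcne2 was widely spread within the high control libraries, with 10.2 and 8.86 CPM in replicates 2 and 7 against 4.41 and 2.39 CPM in replicates 11 and 3.

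Steap1, a metalloreductase family gene, ran from 0.806 to 2.77 CPM in the high class and from 0.194 to 0.754 CPM in the low class. Its log2 fold change was 1.42 ± 0.24 (SE; edgeR adjusted p = 0.00840). The ion channel genes Trpv4 and Clic6 rose by 0.72 ± 0.13 and 0.78 ± 0.15 on the log2 scale (SE; edgeR adjusted p = 0.0165 and 0.0239), with overlap between the classes. Kcnj13, the inward rectifier Kir of the apical membrane, had 0.97 ± 0.22 (SE; edgeR adjusted p = 0.138), and Trpm3 had -0.08 ± 0.15 (adjusted p = 0.791). Trpm3 is also expressed in other brain cells, and whether this bears on its fold was not tested.

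Among the identity, junction and cytoskeleton genes, 4 of 15 rose, 14 had a positive fold change and the median was 0.67. Krt18, an epithelial keratin, ran from 1.27 to 2.28 CPM (median 1.56) in the high class and from 0.388 to 1.04 CPM (median 0.840) in the low class, with no overlap. Its log2 fold change was 1.07 ± 0.17 (SE; edgeR adjusted p = 0.00615). Its keratin partner Krt8 had 0.93 ± 0.19, with an adjusted p of 0.0693. Cldn2, a claudin of leaky tight junctions, rose by 1.09 ± 0.18, Calml4, a calmodulin-like gene, by 1.04 ± 0.19 and Col8a2, a collagen VIII chain, by 0.83 ± 0.16 (SE; edgeR adjusted p = 0.00851, 0.0172 and 0.0278).

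The transcription factor Otx2, which choroid plexus development requires, ran from 1.98 to 3.58 CPM (median 3.23) in the high class and from 1.47 to 2.78 CPM (median 2.09) in the low class. The classes overlapped, and the log2 fold change was 0.45 ± 0.13 (SE; edgeR adjusted p = 0.285). Tmem72 had 0.96 ± 0.20 (adjusted p = 0.0693) and the prolactin receptor gene Prlr 0.67 ± 0.28 (adjusted p = 0.292), by edgeR with SE. Cldn1 had 0.21 ± 0.15 (adjusted p = 0.449) and Htr2c, a serotonin receptor gene, -0.07 ± 0.13 (adjusted p = 0.782), by the same test. Neurons also express Htr2c, and the bearing of this on its fold was not tested.

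**Figure D3:**
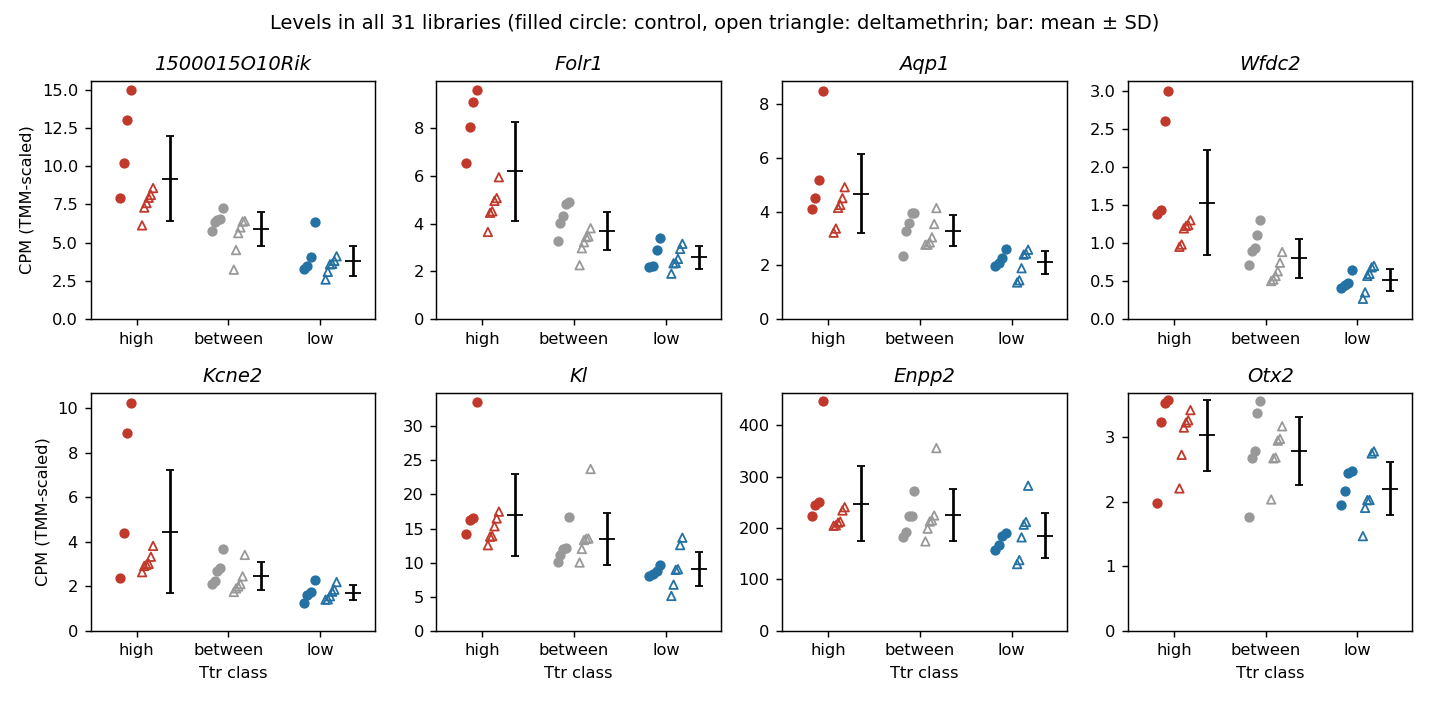
CPM on TMM-scaled library sizes of 8 choroid plexus genes in all 31 libraries, by Ttr class, with control as filled circles and deltamethrin as open triangles; bars give the mean ± SD. Folr1 and Aqp1 do not overlap between the high and low classes, whereas Enpp2 and Otx2 do.

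Of the 5 genes outside the lists, Drc7 encodes a part of the dynein regulatory complex of motile cilia (chromosome 8, 95055103 to 95078141, plus strand). It ran from 3.05 to 4.70 CPM in the high class and from 1.23 to 2.59 CPM in the low class, with no overlap, and its log2 fold change was 0.85 ± 0.12 (SE; edgeR adjusted p = 0.00184). Prr32, a proline-rich protein gene, rose by 1.27 ± 0.19, Wdr86, a WD repeat gene, by 1.08 ± 0.20 and the homeobox gene Msx1 by 0.81 ± 0.14 (SE; edgeR adjusted p = 0.00264, 0.0172 and 0.0118). Gpx8, a glutathione peroxidase family gene of the endoplasmic reticulum, rose by 0.71 ± 0.13 (SE; edgeR adjusted p = 0.0206), from 1.31 to 2.03 CPM in the low class to 2.08 to 4.38 CPM in the high class. These 5 were named because they passed the test and were on no list.

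Over all genes, 9 of 19132 (0.047%) had all high libraries above all low ones, and 0 (0%) the reverse. Those 9 were Folr1, Aqp1, Drc7, Wfdc2, Slc4a5, Krt18, Steap1, Kcne2 and Gpx8, of which 7 are among the 43 choroid genes. Ttr itself, as a description, differed by 1.39 on the log2 scale of the same TMM-scaled CPM.

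Promoters of the genes that rose together were read from RefSeq (GRCm38.p6, 250 bases before to 50 after a start), where 16 of the 21 had an entry. TAATCC, the core bound by OTX2 and related factors, was in 0 of the 16 on either strand (GGATTA in reverse), against 6.9% of tested genes with an entry. GTAAACA, a forkhead core (TGTTTAC in reverse), was in 0 of the 16, against 3.1%. GTTGCC, the arm of the palindrome that RFX factors of ciliated cells bind (GGCAAC in reverse), was in 4 of the 16 (Aqp1, Kcne2, Prr32 and Steap1), against 15.1%. This last motif was chosen after the windows had been seen. None of the 3 motifs holds another, and a match is a description. The Aqp1 and Kcne2 windows are shown as examples. Both genes separated the classes without overlap, as did Steap1, whose match 243 bases before the start is not shown. Prr32, which also has a match, overlapped between the classes. Drc7, Wfdc2, Slc4a5, Krt18 and Gpx8 did not overlap and have an entry without a match. Kcne2 has another window (chr16:92295366-92295615) with no match. Capitals mark the motif, 111 and 109 bases before the start. The 250 bases before the start are printed 5′ to 3′ on the plus strand (chr6:55336049-55336298 and chr16:92292139-92292388).
Aqp1: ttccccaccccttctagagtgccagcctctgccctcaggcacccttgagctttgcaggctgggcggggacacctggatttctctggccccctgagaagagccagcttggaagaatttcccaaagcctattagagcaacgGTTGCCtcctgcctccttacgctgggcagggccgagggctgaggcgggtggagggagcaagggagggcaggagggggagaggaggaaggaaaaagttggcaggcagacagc
Kcne2: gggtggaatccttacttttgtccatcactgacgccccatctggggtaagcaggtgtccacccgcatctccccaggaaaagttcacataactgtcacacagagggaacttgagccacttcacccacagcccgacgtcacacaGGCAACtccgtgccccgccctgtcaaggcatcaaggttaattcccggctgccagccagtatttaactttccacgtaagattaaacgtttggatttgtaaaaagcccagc

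The comparison was repeated within each agent, since the control classes differ more in Ttr and in mitochondrial ribosomal RNA. Within control (4 against 4) 1 gene of 18932 rose (0.00528%) and 0 fell (0%). It was Folr1, with a log2 fold change of 1.63 ± 0.19 (SE; edgeR adjusted p = 0.0223). Within deltamethrin (6 against 6) 1 gene of 19284 rose (0.00519%) and 0 fell (0%), and it was 1500015O10Rik with 1.13 ± 0.13 (SE; edgeR adjusted p = 0.00311). At an unadjusted p under 0.05, 2159 genes were higher within control (11.4%) and 540 within deltamethrin (2.8%). The 43 choroid genes had a median of 0.92 within control, with 42 positive, and 0.45 within deltamethrin, with 40 positive, against 0.0053 and -0.0062 over all genes tested.

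The difference between the agents was tested as an interaction. It passed for 0 of 19132 genes (0%; smallest edgeR adjusted p = 0.343), with 2630 genes (13.7%) at an unadjusted p under 0.05, and DESeq2 also called 0. Of the choroid genes, 10 of 43 had an unadjusted interaction p under 0.05. The largest among the genes that rose were Kcne2, with 1.89 ± 0.39 within control and 0.88 ± 0.15 within deltamethrin, and Wfdc2, with 2.07 ± 0.34 and 1.11 ± 0.23 (log2 ± SE; edgeR adjusted interaction p = 0.344 and 0.345). Single libraries moved the within-control count: without control replicate 3 it was 1054 genes (697 higher and 357 lower), and without replicate 4, 7, 8, 11 or 12 it was 0.

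**Figure D4:**
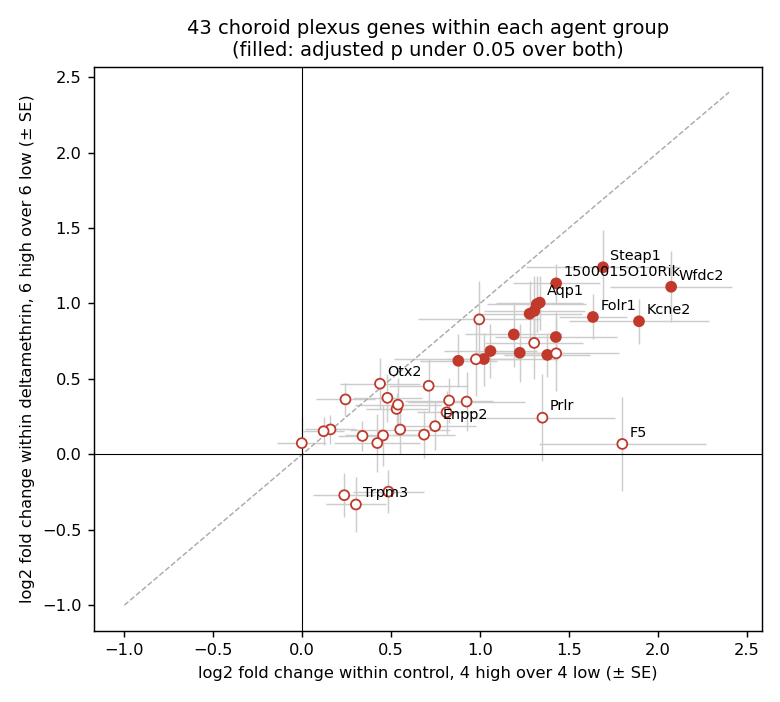
Log2 fold change of high over low Ttr within control (x axis, 4 against 4) and within deltamethrin (y axis, 6 against 6) for 43 choroid plexus genes (± SE), with the line of equal change dashed and the 16 genes that rose over both agents filled. Wfdc2, the rightmost point, reaches 2.07 within control against 1.11 within deltamethrin.

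The 11 libraries between the classes did not enter the comparison and cover a narrow range of Ttr, 580.2 to 636.8 CPM in control and 395.9 to 587.8 CPM in deltamethrin. Their mean lay between the means of the low and high classes for 39 of the 43 choroid genes (90.7%), against 40.7% of all genes tested. The share was 88.9% for the cerebellar list, 83.3% for each of the astrocyte and ependyma lists and 18.2% for brain endothelium. A mean falls between more readily where the class means differ, so the share over all genes is no test of the choroid genes. Folr1 had 3.68 ± 0.80 CPM (SD, n = 11) there, between 6.18 ± 2.07 and 2.59 ± 0.47 CPM, and Aqp1 had 3.29 ± 0.58 CPM, between 4.67 ± 1.48 and 2.11 ± 0.44 CPM (SD, n = 10 each). A slope on log2 Ttr within the 11 libraries passed for 0 of 21197 genes (0%; smallest edgeR adjusted p = 0.748). At an unadjusted p under 0.05 it was positive for 699 genes (3.3%) and negative for 321 (1.51%). Among the 43 choroid genes 28 slopes were positive (65.1%), against 53% over all genes in that fit. Of the 43, 1 (2.33%) had an unadjusted p under 0.05, that of 1500015O10Rik. Its slope was 1.74 ± 0.43 log2 units per doubling of Ttr (SE; edgeR unadjusted p = 0.000937, adjusted p = 0.748). The Folr1 slope was 0.71 ± 0.54 and the Slc4a5 slope -0.38 ± 0.67 (SE).

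Cells that border the choroid plexus or could be carried with it were read from marker lists. The ependyma, the ciliated lining of the ventricles, had 12 of 14 genes tested, all 12 with a positive fold change and a median of 0.49, and 0 passed. Its summed level ran from 20.9 to 37.4 CPM in the high class and from 16.6 to 25.1 CPM in the low class. Rsph1, a radial spoke gene of cilia, had the smallest p-value, with 2.26 ± 0.66 against 1.39 ± 0.25 CPM (SD, n = 10 each) and a log2 fold change of 0.67 ± 0.14 (SE; edgeR adjusted p = 0.0725). Foxj1, the regulator of motile cilia, had 0.21 ± 0.11 (adjusted p = 0.338). Choroid epithelium also expresses ciliary genes, and the part of ependyma in the result was not tested.

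The 5 blood genes were all positive with a median of 0.39, and their sum ran from 582.0 to 1673 CPM in the high class and from 421.7 to 1093 CPM in the low class. Hba-a1, an alpha globin, had a log2 fold change of 0.53 ± 0.14 (SE; edgeR adjusted p = 0.285). Stromal and meningeal fibroblast genes had a median of -0.24 (3 of 11 positive), brain endothelium -0.033 (5 of 11), mural cells 0.0049 (4 of 7) and microglia -0.012 (3 of 6), each with 0 genes past the test. Ogn, Ly6c1, Pdgfrb and Cx3cr1 had the smallest p-values of those lists. Border macrophages had 3 of 5 genes tested and a median of -0.17, led by F13a1. The part of blood in the result was not tested.

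Neural and glial lists differed in sign. The 9 cerebellar genes all had a negative fold change (median -0.47, summed level 93.2 to 565.6 CPM in the high class and 288.7 to 582.8 CPM in the low class), and 0 passed. Within the 11 libraries between the classes all 9 had a positive slope on log2 Ttr (median 0.73). Of those slopes 0 had an edgeR unadjusted p under 0.05. Cbln3, a granule cell gene, had 54.8 ± 38.7 against 97.3 ± 43.02 CPM (SD, n = 10 each) and a log2 fold change of -0.91 ± 0.34 (SE; edgeR adjusted p = 0.285), and Slc1a6 led the list by p-value. The 6 astrocyte genes were all negative (median -0.36), led by Gja1, with Slc1a2 at -0.64 ± 0.22 (SE; edgeR adjusted p = 0.285). The 8 striatal genes were all positive (median 0.28, summed level 615.1 to 1103 CPM in the high class and 476.0 to 1043 CPM in the low class), led by Tac1 with 0.38 ± 0.15 (SE; edgeR adjusted p = 0.285).

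These regional differences were set beside the choroid result by adding a marker as a covariate. With Cbln3 as a covariate 8 genes rose and with Adora2a, a striatal gene, 3 did, against 21 without. The median of the 43 choroid genes was 0.59 under each, with 42 and 41 positive. The 3 genes that passed with Adora2a were 1500015O10Rik, Folr1 and Aqp1.

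The remaining lists had medians of 0.0076 for thalamus (7 genes tested, led by Tcf7l2), -0.13 for medial habenula (5, Chrna3), -0.35 for hypothalamus (7, Hcrt), 0.0010 for dentate gyrus and hippocampus (7, Spink8), -0.19 for cortex (6, Rorb), -0.28 for olfactory bulb (3, Eomes) and -0.024 for oligodendrocytes (6, Mog). In each of these 0 genes passed. Of the pituitary genes only Tshb was tested, with -0.15, and of the 4 pineal genes none passed the count filter, their summed level being at most 0.948 CPM in each of the 20 libraries.

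Genes that handle thyroid hormone, the cargo of transthyretin, did not pass: 0 of 10 did, against 0.11% of all genes tested. Of the 10, 3 were positive and the median was -0.054. At an edgeR unadjusted p under 0.05, 1 was higher and 2 were lower, against 6.68% and 9.08% of all genes. Dio2, the enzyme that activates thyroxine, had 34.4 ± 9.14 against 45.8 ± 12.03 CPM (SD, n = 10 each), a log2 fold change of -0.42 ± 0.14 (SE; edgeR adjusted p = 0.285), and Crym, which binds thyroid hormone in the cytosol, had 0.27 ± 0.09 with the same adjusted p. Of the 12 clock genes (the study's title names circadian rhythms), 0 passed, 4 were positive and the median was -0.073. Bhlhe41 had the smallest p-value of these, with -0.18 ± 0.09 (SE; edgeR adjusted p = 0.327).

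**Figure D5:**
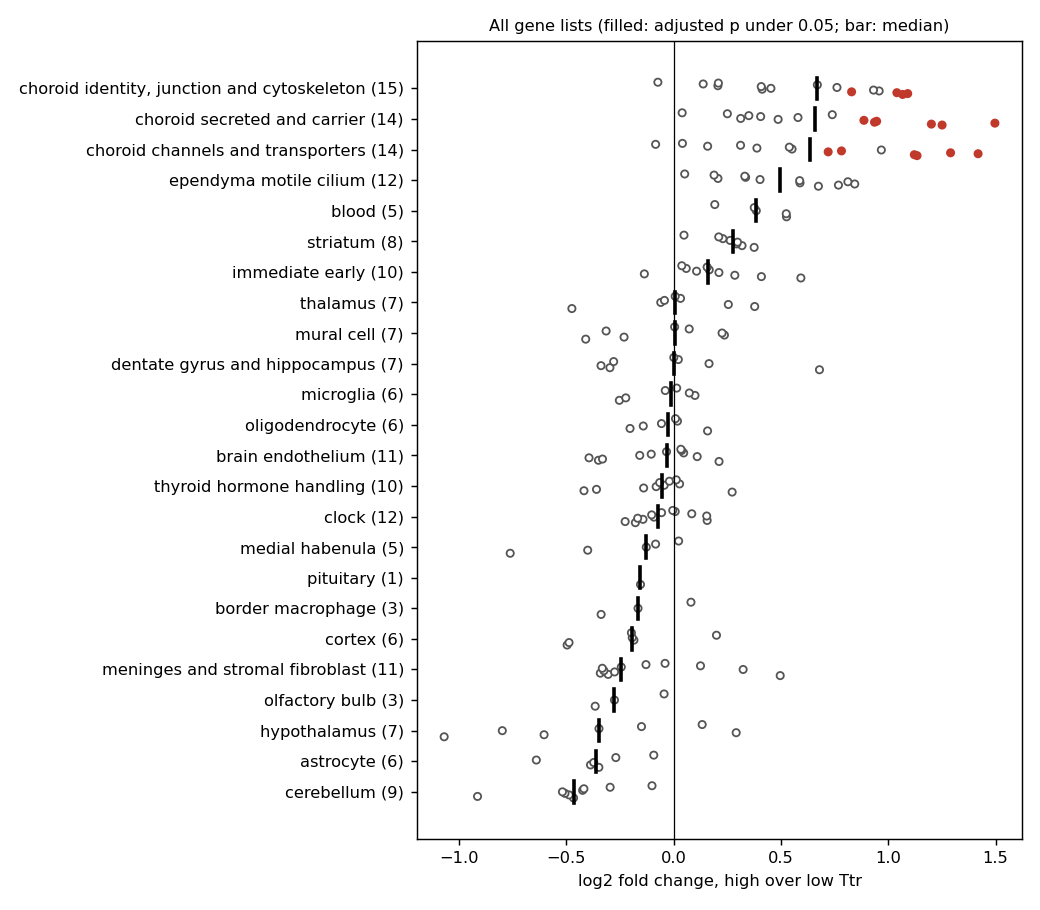
Log2 fold change of high over low Ttr for the tested genes of 24 marker and pathway lists, ordered by median, with the number of genes tested in brackets. The 3 choroid plexus lists stand at the top with medians of 0.64 to 0.67, ependyma follows at 0.49, and cerebellum is lowest at -0.47.

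Of the lower genes, none passed. The 3 with the smallest p-values and a mean level of at least 1 CPM were Fam19a2, A730017L22Rik and Car10. Their log2 fold changes were -0.30 ± 0.07, -0.42 ± 0.10 and -0.41 ± 0.10 (SE; edgeR adjusted p = 0.104, 0.210 and 0.281). These 3 were also the lower genes that DESeq2 called.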

How the data were processed

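Total RNA sequencing of 31 mouse brain samples was analysed, 13 control and 18 deltamethrin by the agent label. The authors deposited raw counts per Ensembl gene (48795 genes); the submitters' processing notes name Trimmomatic, HISAT2, SAMtools, MultiQC and GRCm38, while the counting tool, annotation and use of strand are not given in the sources used here. Without strand, reads of overlapping genes cannot be told apart. Gene names and coordinates are those of GENCODE M21 (GRCm38, 99.3% of IDs found, 1-based).

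Ttr was taken out before library sizes, filtering (filterByExpr, minimum count 10 and minimum total 15), TMM scaling and the fit. The classes were compared with edgeR 4.0.16 (R 4.3.3), quasi-likelihood F-test, robust=TRUE, agent as covariate, Benjamini-Hochberg adjustment over all genes tested. An SE was taken as |log2 fold change| over √F. CPM of genes other than Ttr use TMM factors over all 31 libraries. limma 3.58.1 (voom) and DESeq2 1.42.0 were alternatives, beside other scalings, filters, covariates, class limits and single libraries left out. Library measures were compared by exact permutation within agent. The pipeline was tested on simulated counts. Intervals cover counting error only.

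The classes come from a measured gene, so the tests describe which genes varied with Ttr across libraries. The rule, the 25 gene lists and the alternatives were chosen with earlier results of these data known. Named were the 15 largest rises of at least 1 CPM among the genes called, up to 10 falls (the 3 smallest p-values where fewer than 3 passed), choroid genes, and the member with the smallest p-value of each other list. The remaining called genes were named because they passed. Trpm3, Htr2c, Foxj1, Cbln3, Slc1a2, Dio2, Fos and Npas4 fall outside this rule and were chosen after their values were seen.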

Additional observations from a re-analysis of the deposited data

Results flagged for a closer look

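In each class of 10 libraries the highest and lowest value of each named gene and library measure was set against the others by Dixon's test at the 95% level. Of 118 such groups of values, 28 held a library that stood apart. About 1 in 20 groups would do so with normally distributed values. These are CPM values in classes cut by Ttr rank, and many genes were named because they followed Ttr. That rate is therefore no benchmark here, and the flags are a description.

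Control replicate 7, in the high class, stood apart for 12 genes, 11 of them on the choroid lists and the other Prr32. It had 447.4 CPM of Enpp2 (next highest 251.5), 33.5 of Kl (17.5), 19.1 of Clic6 (12.1), 17.2 of Prlr (8.37), 12.7 of Tmem72 (7.49), 8.59 of Slc4a5 (4.28) and 8.50 of Aqp1 (5.17). It also had 5.23 CPM of Cldn2 (3.28), 4.88 of Lbp (3.39), 3.44 of Prr32 (2.14), 3.40 of Kcnj13 (1.93) and 2.77 of Steap1 (1.75). Without this library 20 genes rose, each among the 21, and the median of the 43 choroid genes was 0.48 in place of 0.67.

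Control replicate 2, also high, stood apart with 25620 detected genes (next lowest 27545), a TMM factor of 0.613 (0.878), 12.5 CPM of Cx3cr1 (19.7) and 6.14 CPM of Spink8 (4.03 next highest). Without it 20 genes rose. Control replicate 11 had 26.2 CPM of Ly6c1 (20.8 next highest) and deltamethrin replicate 5 had 15.6 CPM of Egr2 (3.90).

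In the low class, control replicate 10, the library nearest the upper edge, had 6.36 CPM of 1500015O10Rik (4.11 next highest), 4.74 of Msx1 (3.27) and 7.90 of Egr2 (2.38). Deltamethrin replicate 8 had 26.3% mitochondrial ribosomal RNA (17.2%) and a TMM factor of 0.845 (0.997 next lowest). Deltamethrin replicate 2 had 24.9 CPM of Pdgfrb (17.4) and 8.03 of Hcrt (2.86), deltamethrin replicate 11 had 26.2 of Slc1a6 (18.8) and 2.50 of Chrna3 (1.07), and deltamethrin replicate 3 had 14.5 of A730017L22Rik (11.3).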

How the results depend on the processing

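The count of 21 genes, all higher, moved with the classes and with composition. It was 32 with DESeq2 (29 higher, 3 lower), 9 with the mitochondrial ribosomal RNA share as a covariate, 8 with Cbln3, 3 with Adora2a, 2 with classes split at the median and 4063 (2122 higher, 1941 lower) with the 2 and 2 most extreme control and 3 and 3 most extreme deltamethrin libraries. A slope on log2 Ttr over all 31 libraries gave 835 genes (275 higher, 560 lower), including all 21. Alternatives chosen after seeing the data gave 7 without the 4 libraries over 20% mitochondrial ribosomal RNA, 36 (all higher) for the slope with that share as a covariate, and 2 with that share, Cbln3, Adora2a and Fos together. The cause of these moves was not tested. It ran from 14 (without control replicate 8) to 31 (without deltamethrin replicate 8) when 1 library was left out. The median of the 43 choroid genes stayed positive in each setting. 1500015O10Rik and Folr1 passed in every setting. Scaling by no factors moved the median of all genes to -0.093, from -0.0032.

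Within control the count of 1 was 0 without scaling factors and 0 with the mitochondrial share covariate, and ran from 0 to 1054 with 1 library left out. Within deltamethrin it was 1 without scaling factors and with each library left out. The slope between the classes gave 0 in the same alternatives, and the interaction, refitted only with DESeq2, gave 0. The difference in Ttr between agents ran from -216.1 to -109.4 CPM with 1 library left out. Of 2256 values of 54 named genes, 2047 kept direction and side of the threshold. Another 143 lost a pass, 102 in the alternatives and 41 with 1 library left out, and 56 gained one. Only the 21 called genes could lose a pass, and most named genes had none to lose. Reversed were Tshb with the mitochondrial covariate (0.077), the Cbln3 covariate (0.10), the slope with the mitochondrial covariate (0.17) and 4 covariates (0.22), Eomes with Cbln3 (0.080) and 4 covariates (0.034), Mog (-0.071), Tac1 (-0.10) and Egr2 (-0.22) with 4 covariates, and Egr2 without deltamethrin replicate 5 (-0.42, in a range up to 0.92 with 1 library left out). None of these had passed. No paired analysis was possible because the labels give no replicate numbers shared between groups. Genes near 1 CPM are limited by depth.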

Other observations

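Immediate early genes, which neurons switch on within minutes of activity, had log2 fold changes of opposite sign between the high and low Ttr classes in the 2 agent groups. Of 10 listed genes 0 were positive within control (median -0.55) and 10 within deltamethrin (median 0.73), and 0 passed in either. Fos had -1.12 within control and 1.01 within deltamethrin, and Npas4 had -0.80 and 1.22. The interaction had an unadjusted p under 0.05 for 6 of the 10 genes, against 13.7% of all genes tested, and 0 passed by edgeR after adjustment over all genes. Over both agents 9 of 10 were positive with a median of 0.16, and 0 passed. Without deltamethrin replicate 5, 8 of 10 were positive within deltamethrin with a median of 0.082, and without control replicate 10, 2 of 10 were positive within control with a median of -0.14. Without both libraries the interaction term was positive for 10 of the 10, as with them, with a median of 0.24 in place of 1.25. It then had an edgeR unadjusted p under 0.05 for 0 of the 10.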
